A study of Mus musculus with 15 samples.

Results

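The 9 genes described here, Cap1, Tmem87a, AI662270, Il17b, Usp26, Pnma5, Mid1, Ankrd31 and Trim66, were picked because their level in 1 pluripotent line stood apart from the level in the others. They are 9 of 18193 genes with a probe set of their own on an Affymetrix mouse array, and 13 probe sets are annotated to them alone. Cap1 and AI662270 had 2 probe sets each, Mid1 had 3 and the other 6 genes had 1 each. Because the genes were chosen on these levels, the difference of the line that stands apart is given as a description without a test. Where both groups compared exclude that line, a test was made.

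RNA was measured on 15 arrays in 5 groups of 3. The induced pluripotent stem (iPS) lines IP20D-3 and IP14D-1, the embryonic stem (ES) line CL11 and the mouse embryonic fibroblasts (MEF) carry the B6D2F1 genetic background, and the iPS line IP14D-101 carries C57x129S2. All ES and iPS cells grew with LIF on feeder fibroblasts stopped with mitomycin C, in medium holding serum or its replacement (which of them each line had is not recorded). The labels name the MEF as the cells the iPS lines came from, although IP14D-101 has another background, so line and background cannot be told apart for IP14D-101. Each group is 1 line or 1 fibroblast culture type with 3 biological replicates, as the design text calls them, so p values measure the spread between those samples and not between independent lines. The Y-linked genes Eif2s3y and Uty had log2 levels of 8.29 and 7.65 in MEF, below background on all its arrays, while both lay above background in all 4 lines. Xist, the RNA of the inactive X chromosome, had 16.92 in MEF, against 13.05 in CL11 to 13.67 in IP14D-1. In comparisons with MEF, cell type and sex chromosomes therefore cannot be told apart for X-linked genes. Whether the MEF on the arrays were the source of the lines was not tested. Ages, sexes and the reprogramming method were not given in the sources used here.

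These genes do not form 1 pathway. Cap1 encodes a cyclase-associated protein that binds actin and works with cofilin in taking filaments apart and recycling actin monomers. Mid1 and Trim66 encode members of the tripartite motif family, which includes many ubiquitin ligases and chromatin readers. Usp26 and Ankrd31 are known from male germ cells, where Ankrd31 takes part in placing the DNA breaks of meiosis in mice. Genes of the germ line are often kept silent in body cells by DNA methylation of their promoters, and cultured pluripotent cells are known to differ in how fully such genes are shut.

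The deposited signals were scaled to a common trimmed mean and are given as scaled signal or as log2(scaled signal + 16). Background was the 95th percentile of 44 probe sets of olfactory receptor genes, a scaled signal of 2122 or a log2 level of 11.06. Between 61.4% and 66.3% of genes lay above it on an array, and arrays of a group correlated at 0.941 to 0.954. Where the dimmer group had a mean below background, its arrays were raised to background and the difference is written as at least a fold. All 10 markers of pluripotent cells lay above background in each of the 4 lines, against 1 of 10 in MEF, and all 12 fibroblast markers did so in MEF. Pou5f1, a core pluripotency factor, had a log2 level of 18.86 in IP20D-3, 18.87 in IP14D-101, 18.74 in IP14D-1 and 18.93 in CL11, against 9.32 in MEF. Nanog, another such factor, had 18.29, 18.43, 18.07 and 18.54 in these lines, against 9.67 in MEF. In such bulk samples, fewer cells of a type and less RNA per cell cannot be told apart.

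Each gene was assigned to the pluripotent line whose mean log2 level was farthest from the mean of the other 3 lines, in the probe set with the highest mean. That gave IP20D-3 for 4 genes (Cap1, Tmem87a, AI662270 and Usp26), IP14D-101 for 3 (Ankrd31, Mid1 and Trim66) and IP14D-1 for 2 (Pnma5 and Il17b). For the first 4 and for Ankrd31, which the choice of genes would favour, 1 line lay apart from the other 3. For Mid1 and Trim66 the levels went against a single line, because CL11 was low together with IP14D-101. Pnma5 differed by steps across the lines, with IP20D-3 highest and IP14D-1 lowest. Il17b was below background in IP14D-1, whose arrays overlapped those of IP14D-101.

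**Figure D1:**
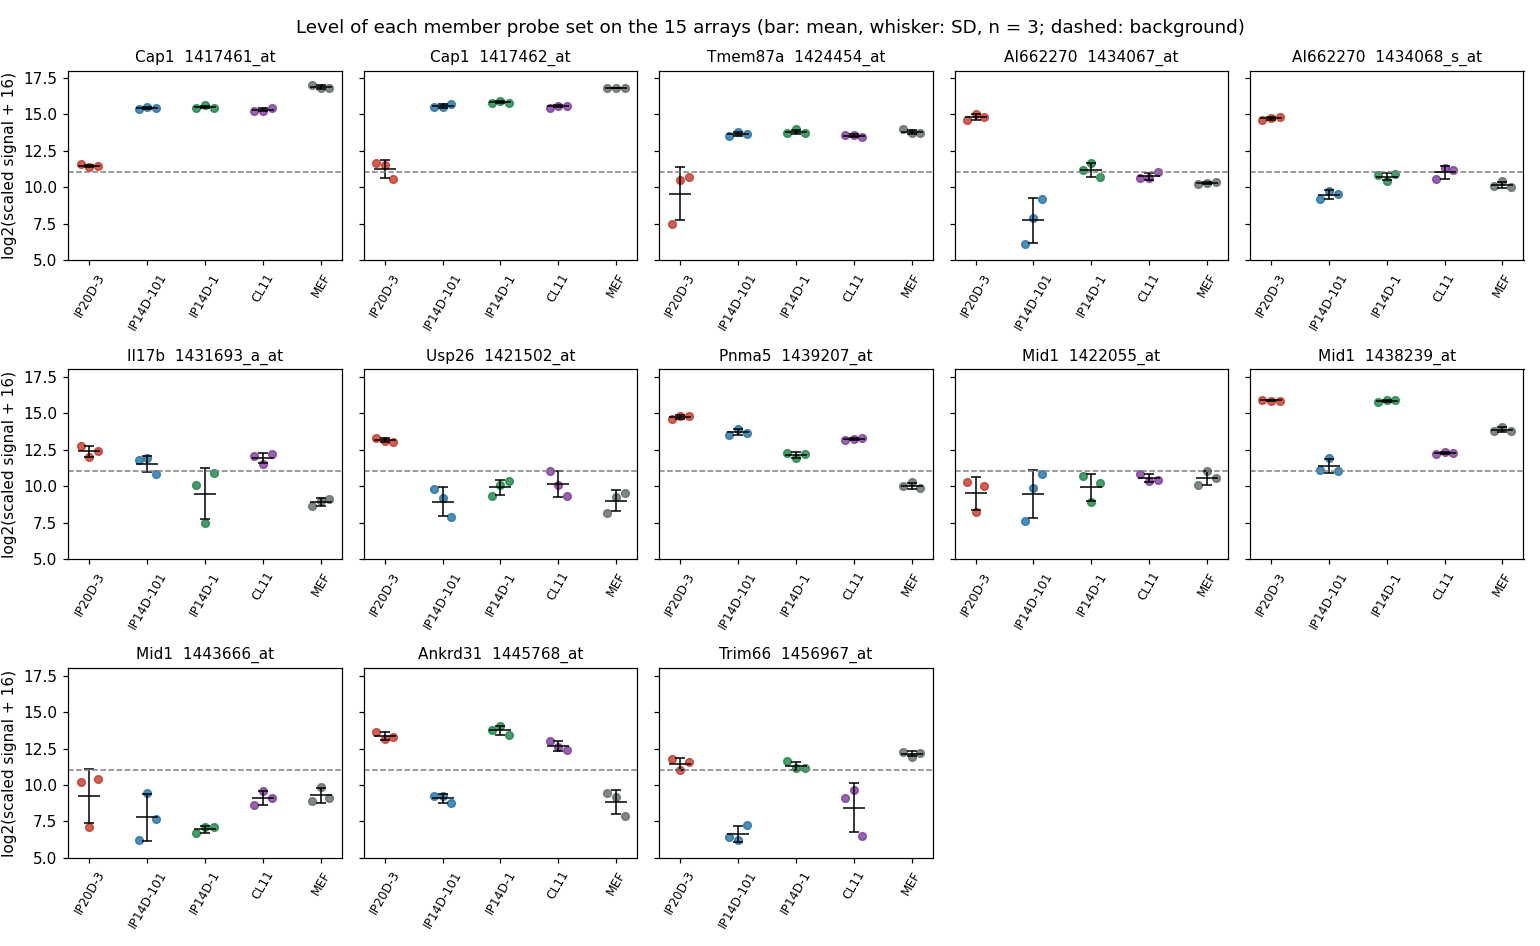
Each panel plots 1 probe set, with the log2 level (no unit) on the vertical axis and the 5 groups on the horizontal axis. Points are arrays, bars and whiskers are means and SD over 3 arrays, and the dashed line is background at 11.06. Cap1, Tmem87a, AI662270 and Usp26 are set apart in IP20D-3 and Ankrd31 in IP14D-101 among the lines, while the Mid1 probe set 1438239_at and Trim66 are low in both IP14D-101 and CL11.

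Promoter sequence is shown for 4 of the genes with a single outlying line, because promoter methylation, known for silencing germ line genes, falls on CG dinucleotides, which are in capitals. The sequences come from RefSeq on GRCm38.p6, are the 250 bases before the annotated start, and read 5′ to 3′ on the strand of the gene. They lie at chr4:122886077-122886326 on the minus strand for Cap1, chr2:120404117-120404366 on the minus strand for Tmem87a, chrX:51801234-51801483 on the minus strand for Usp26 and chr13:96748043-96748292 on the plus strand for Ankrd31.
Cap1: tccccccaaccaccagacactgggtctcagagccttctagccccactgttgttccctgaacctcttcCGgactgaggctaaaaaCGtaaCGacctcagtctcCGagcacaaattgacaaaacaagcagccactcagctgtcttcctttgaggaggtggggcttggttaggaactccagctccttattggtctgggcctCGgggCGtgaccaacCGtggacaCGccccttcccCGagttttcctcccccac
Tmem87a: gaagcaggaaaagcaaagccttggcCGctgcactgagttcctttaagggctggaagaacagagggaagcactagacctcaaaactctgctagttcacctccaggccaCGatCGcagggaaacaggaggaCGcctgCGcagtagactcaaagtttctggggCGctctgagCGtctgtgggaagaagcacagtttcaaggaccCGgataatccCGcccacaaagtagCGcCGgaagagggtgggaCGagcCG
Usp26: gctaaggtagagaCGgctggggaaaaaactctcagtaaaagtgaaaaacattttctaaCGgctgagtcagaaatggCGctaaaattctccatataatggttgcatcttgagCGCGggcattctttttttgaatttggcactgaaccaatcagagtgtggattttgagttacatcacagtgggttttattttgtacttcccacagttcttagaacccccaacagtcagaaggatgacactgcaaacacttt
Ankrd31: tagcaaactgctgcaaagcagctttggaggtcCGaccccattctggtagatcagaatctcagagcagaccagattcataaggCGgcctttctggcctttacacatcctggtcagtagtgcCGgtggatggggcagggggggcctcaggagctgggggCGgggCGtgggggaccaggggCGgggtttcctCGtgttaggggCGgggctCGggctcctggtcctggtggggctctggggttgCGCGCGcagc
Cap1 had 9 CG in this window, Tmem87a 13, Usp26 5 and Ankrd31 12, against a median of 6 over 32851 RefSeq promoters of the same length. The share of all promoters with at least as many CG, a motif that reads the same on both strands, was 40.3% for Cap1, 31.5% for Tmem87a, 55.6% for Usp26 and 33.5% for Ankrd31. Of the remaining genes, Trim66 had 3 CG and Pnma5 had 0. Mid1 had 3 annotated starts with 0, 5 and 9 CG. For AI662270, also set apart in a single line, and for Il17b no promoter sequence was available. DNA methylation itself was not measured.

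Cap1 was low in IP20D-3 alone. The probe set 1417461_at gave scaled signals of 3032, 2706 and 2759 in IP20D-3, against 42101, 45808 and 45075 in IP14D-101, 45158, 49892 and 44966 in IP14D-1, 39113, 39340 and 43869 in CL11, and 131873, 114850 and 112711 in MEF. The second probe set, 1417462_at, gave 3231, 2960 and 1474 in IP20D-3, against 46164, 47431 and 53502 in IP14D-101, 56608, 61132 and 56604 in IP14D-1, 45394, 49788 and 48483 in CL11, and 114546, 117185 and 114457 in MEF. Both probe sets showed the same order, no IP20D-3 array came near the arrays of another group, and all IP20D-3 arrays but 1 in 1 probe set lay just above background.

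The level of Cap1 in IP20D-3 was 15.6-fold below IP14D-101, 16.4-fold below IP14D-1, 14.3-fold below CL11 and 42-fold below MEF in 1417461_at. In 1417462_at these folds were 20.1, 23.9, 19.7 and 47.4. Among 18193 genes, Cap1 had the 2nd most negative difference of IP20D-3 from the other lines, −4.40 ± 0.15 log2 (SE). The other lines resembled one another and lay below MEF. IP14D-101 was lower than MEF by −1.43 log2, IP14D-1 by −1.36 and CL11 by −1.55 in 1417461_at (SE 0.09, n = 3 per group; limma adjusted p = 1.8e-10, 4.5e-10 and 5.8e-11), and each of these calls was also made in 1417462_at. None of the 3 comparisons among these lines passed in either probe set by limma, and 0 had an unadjusted p under 0.05. Without IP20D-3 replicate 3, the dimmest in 1417462_at, the difference from the other lines was −4.05 log2.

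Tmem87a encodes a membrane protein of the Golgi with a bundle of helices through the membrane. Its probe set gave scaled signals of 159, 1423 and 1683 in IP20D-3, against 11883, 14398 and 12843 in IP14D-101, 13443, 16083 and 13731 in IP14D-1, 12393, 12310 and 10935 in CL11, and 16109, 13360 and 13353 in MEF. All 3 IP20D-3 arrays lay below background and all 12 others lay well above it. The level in IP20D-3 was at least 6.09-fold lower than in IP14D-101, at least 6.73-fold lower than in IP14D-1, at least 5.55-fold lower than in CL11 and at least 6.66-fold lower than in MEF. Without IP20D-3 replicate 1, whose 159 was the lowest signal, the log2 difference from the other lines was −3.06 in place of −4.12. With levels below background raised to it, the difference was −2.61. None of the 6 comparisons among the other groups passed by limma, with differences from −0.26 to 0.28 log2 (SE 0.52), and 0 had an unadjusted p under 0.05. With 1 probe set, a second reading of the gene was not possible.

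AI662270, a gene that RefSeq lists as a long noncoding RNA, went the other way. In 1434067_at the scaled signals were 25075, 33634 and 28543 in IP20D-3, against 54, 216 and 580 in IP14D-101, 2283, 3171 and 1681 in IP14D-1, 1585, 1546 and 2077 in CL11, and 1192, 1248 and 1329 in MEF. The probe set 1434068_s_at, whose type of name marks probes that can also match other transcripts, gave 25111, 27418 and 28258 in IP20D-3, against 569, 846 and 733 in IP14D-101, 1837, 1366 and 1909 in IP14D-1, 1475, 2588 and 2343 in CL11, and 1066, 1340 and 1007 in MEF. Both probe sets were high on the 3 IP20D-3 arrays alone, and 20 of the 24 other values lay below background.

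The difference of AI662270 in IP20D-3 from the other lines was 4.30 ± 0.28 log2 (SE) in 1434068_s_at, and 3.61 with levels below background raised to it. IP20D-3 was at least 12.6-fold higher than IP14D-101, IP14D-1 and MEF and at least 11.4-fold higher than CL11 in 1434068_s_at. In 1434067_at it was at least 13.5-fold higher than IP14D-101, CL11 and MEF and 12.5-fold higher than IP14D-1. Among the remaining groups, IP14D-101 was lower than IP14D-1 in 1434067_at (limma adjusted p = 1.9e-04), but only at least 1.08-fold lower once background was allowed for. The other comparisons among them that passed had both groups below background, so their order is not a measured one.

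Usp26, an X-linked gene for a ubiquitin-specific peptidase, was above background in IP20D-3 only among the 5 groups. Its scaled signals were 9984, 8803 and 8310 in IP20D-3, against 868, 556 and 221 in IP14D-101, 618, 1080 and 1276 in IP14D-1, 2097, 1085 and 617 in CL11, and 276, 600 and 722 in MEF. The IP20D-3 arrays stood at least 4.22-fold above every other group, whose arrays all lay below background. Its difference from the other lines was 3.47 ± 0.51 log2 (SE), and 2.08 with levels below background raised to it. None of the 6 comparisons among the other groups passed by limma, and 0 had an unadjusted p under 0.05.

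Ankrd31, whose protein binds the meiotic break factor REC114 in mice, was low in IP14D-101. The scaled signals were 606, 596 and 413 in IP14D-101, against 13019, 9208 and 9972 in IP20D-3, 14118, 17235 and 11198 in IP14D-1, 8295, 6282 and 5377 in CL11, and 688, 569 and 224 in MEF. IP14D-101 lay below background as MEF did, and the 9 arrays of the other lines lay above it. The level in IP14D-101 was at least 4.97-fold lower than in IP20D-3, at least 6.54-fold lower than in IP14D-1 and at least 3.07-fold lower than in CL11. Its difference from the other lines was −4.18 ± 0.31 log2 (SE), and −2.21 with levels below background raised to it.

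The other lines each exceeded MEF in Ankrd31. Its choice for a low level in IP14D-101 favoured high levels in the other lines, and IP14D-1 was the second outlying line (2.05 log2). The p values that follow are therefore no independent support for a difference from MEF. IP20D-3 was at least 4.97-fold higher (adjusted p = 6.2e-09), IP14D-1 at least 6.54-fold (adjusted p = 2.0e-09) and CL11 at least 3.07-fold (adjusted p = 6.5e-08; limma, n = 3 per group). Between IP14D-1 and CL11 the difference of 1.09 ± 0.38 log2 (SE) did not pass (adjusted p = 0.0545), nor did IP20D-3 against either.

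Mid1 is X-linked and encodes a microtubule-bound ubiquitin ligase that acts on the catalytic subunit of phosphatase PP2A. In the probe set 1438239_at the scaled signals were 2243, 3912 and 2079 in IP14D-101, against 62320, 59310 and 59603 in IP20D-3, 55240, 61873 and 60385 in IP14D-1, 4656, 5090 and 4933 in CL11, and 14179, 17272 and 13845 in MEF. No 2 groups overlapped apart from IP20D-3 and IP14D-1. The order was IP14D-101, CL11, MEF and then the pair of iPS lines, so that CL11 lay on the low side of the fibroblasts as well.

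IP14D-101 was 22.8-fold below IP20D-3 and 22.3-fold below IP14D-1 in this probe set, but only 1.85-fold below CL11. Comparisons without IP14D-101 showed the same split. The choice of Mid1 on differences between lines favoured it, and IP20D-3, 2.72 log2 above the other lines, was the second outlying line. The p values that follow are therefore no independent support for the split. IP20D-3 exceeded CL11 by 3.62 ± 0.18 log2 (limma adjusted p = 2.3e-10) and IP14D-1 exceeded it by 3.59 ± 0.18 (adjusted p = 2.7e-10; SE, n = 3 per group), while IP20D-3 and IP14D-1 differed by 0.03 (adjusted p = 0.962). Against MEF, IP20D-3 was 4.02-fold and IP14D-1 3.93-fold higher and CL11 3.07-fold lower (adjusted p = 1.4e-08, 1.9e-08 and 2.8e-07).

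The remaining Mid1 probe sets gave no such pattern. In 1422055_at every group mean lay below background, from 839 in IP20D-3 to 1533 in MEF. In 1443666_at the group means ran from 111 in IP14D-1 to 880 in IP20D-3, also all below background. Neither detected the gene in any group, also not in IP20D-3 and IP14D-1, where 1438239_at had means of 60411 and 59166. The pattern thus rests on 1 of 3 probe sets, and expression cannot be told apart from a probe effect for Mid1. Which of the 3 annotated starts or transcripts each probe set reads was not analysed here.

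Trim66 encodes a TIF1-family protein that in mice binds HP1 proteins and is known from the testis. Its scaled signals were 71.9, 60.1 and 138 in IP14D-101, against 3505, 2029 and 3008 in IP20D-3, 3181, 2294 and 2285 in IP14D-1, 544, 809 and 75.2 in CL11, and 4961, 3928 and 4594 in MEF. IP14D-101 and CL11 both lay below background, and the other pair of lines lay near it. The fitted difference of IP14D-101 from the other lines, −3.75 log2, shrank to −0.22 with levels below background raised to it, and IP20D-3 was then the line farthest out.

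Measured against background, Trim66 was at least 1.31-fold lower in IP14D-101 than in IP20D-3, at least 1.2-fold lower than in IP14D-1 and at least 2.1-fold lower than in MEF. For CL11, also below background, the bounds are the same numbers by construction, and the p values come from the fit to levels as measured. IP20D-3 exceeded CL11 at least 1.31-fold (limma adjusted p = 0.00572), IP14D-1 exceeded it at least 1.2-fold (adjusted p = 0.00668) and CL11 was at least 2.1-fold lower than MEF (adjusted p = 2.0e-04). As for Mid1, IP20D-3 was the second outlying line of Trim66 (2.64 log2), so these p values are no independent support for a split of the lines. IP20D-3 and IP14D-1 did not differ past the threshold from each other or from MEF.

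Markers of other cells moved with this split of the lines. The 12 markers of primitive endoderm, an early extraembryonic lineage, were all above background in IP14D-101 and CL11, with summed signals of 343811 to 403862 and 514093 to 520886. In IP20D-3 6 of 12 were above background (53075 to 56804) and in IP14D-1 7 of 12 (76420 to 80775), with 6 of 12 in MEF (1042294 to 1131997). Gata6, which specifies that lineage, had log2 levels of 14.51 in IP14D-101 and 14.91 in CL11, against 10.96 in IP20D-3 and 10.93 in IP14D-1, and Sox17 had 12.63 and 13.01, against 10.69 and 9.97. The Y-linked genes Eif2s3y and Uty had log2 levels of 14.19 and 12.34 in IP14D-101 and 14.13 and 12.83 in CL11, against 15.69 and 13.69 in IP20D-3 and 15.63 and 13.85 in IP14D-1. Neither gene passed for any line against the other 3 by limma (adjusted p = 0.0502 to 0.0556 for Eif2s3y and 0.112 to 0.632 for Uty). That contrast sets each line against a mean that holds the line most like it, so it cannot decide on this split. No marker on the list was at 0 in any group, and the part of either in the levels of Mid1 and Trim66 was not tested.

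Pnma5, an X-linked gene of the paraneoplastic Ma family, which derives from the Gag protein of retrotransposons, was graded. The scaled signals were 5032, 3903 and 4718 in IP14D-1, against 24878, 28760 and 28703 in IP20D-3, 11907, 15586 and 12724 in IP14D-101, 9243, 9748 and 10295 in CL11, and 1015, 1210 and 904 in MEF. No 2 groups overlapped, and the order was MEF, IP14D-1, CL11, IP14D-101 and IP20D-3. IP14D-1 was 1.75 log2 below the mean of the other lines and IP20D-3 was 1.71 above it, so neither alone stood apart. IP14D-101 and CL11 differed by 0.45 ± 0.18 log2, which did not pass (limma adjusted p = 0.15; SE, n = 3 per group). Both exceeded MEF, IP14D-101 at least 6.24-fold (adjusted p = 2.3e-12) and CL11 at least 4.57-fold (adjusted p = 1.6e-11), and IP20D-3, given without a test as the second outlying line, was at least 12.8-fold above MEF. The choice of Pnma5 on a low level in IP14D-1 favoured high levels in the other lines, so these p values are no independent support.

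Il17b, a cytokine of the interleukin 17 family that signals through Il17rb, was low in IP14D-1. Its scaled signals were 1048, 165 and 1913 in IP14D-1, against 7025, 4099 and 5313 in IP20D-3, 3579, 3813 and 1838 in IP14D-101, 4361, 2986 and 4679 in CL11, and 377, 497 and 533 in MEF. IP14D-1 and MEF lay below background on all arrays, and IP14D-1 overlapped IP14D-101. The level in IP14D-1 was at least 2.51-fold lower than in IP20D-3, at least 1.38-fold lower than in IP14D-101 and at least 1.85-fold lower than in CL11. Leaving out IP14D-1 replicate 2, with a signal of 165, moved the difference from the other lines to −1.47 log2, against −2.46 with it. With levels below background raised to it, the difference was −0.91. IP14D-101 exceeded MEF at least 1.38-fold (limma adjusted p = 0.00212) and CL11 at least 1.85-fold (adjusted p = 5.7e-04). As for Pnma5, the choice of the gene favoured high levels in these lines, so these p values are no independent support. IP20D-3, given without a test since it lay farthest on the high side, was at least 2.51-fold above MEF.

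Fibroblast markers, which feeder cells would add, were highest among the lines in IP14D-1, with 6 of 12 above background and summed signals of 34727 to 37536. In IP20D-3 3 of 12 were above background (15610 to 19416), in IP14D-101 4 of 12 (29336 to 31365) and in CL11 4 of 12 (23754 to 29091), against 5090355 to 5614254 in MEF. Col1a1, a fibrillar collagen, had log2 levels of 12.28 in IP14D-1 and 19.74 in MEF, and Postn had 11.51 and 19.84. None of the 12 was at 0 in any group, and their part in the levels of Pnma5 and Il17b, which were low in MEF, was not tested.

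**Figure D2:**
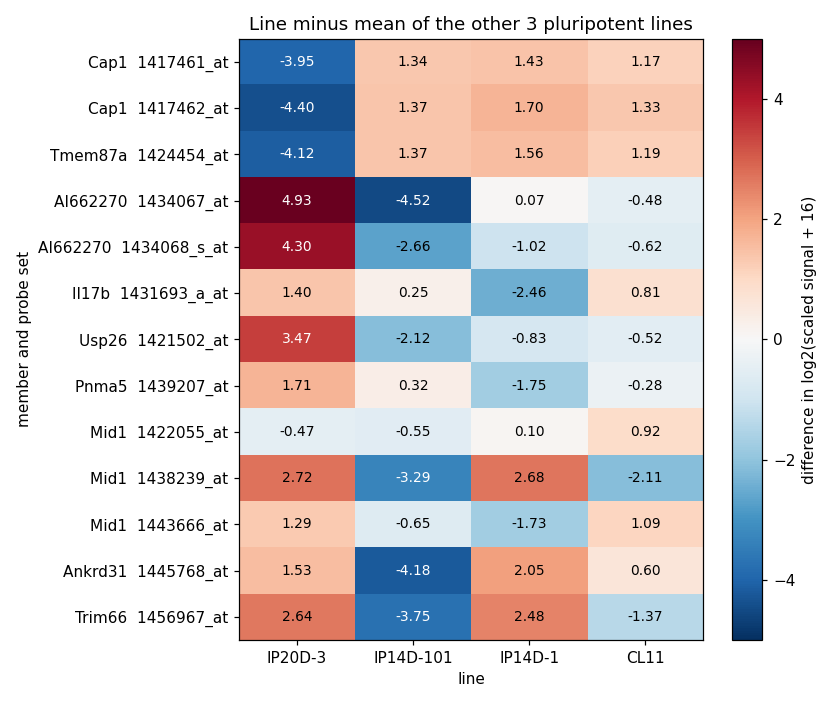
Colours and printed numbers give, for each probe set (rows) and line (columns), the mean log2 level minus the mean over the other 3 lines. Cap1 reads −3.95 and −4.40 in IP20D-3 by its 2 probe sets and AI662270 4.93 and 4.30, whereas the Mid1 probe set 1438239_at reads −3.29 in IP14D-101 and −2.11 in CL11.

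Over the 13 probe sets, 72 comparisons excluded the line that stands apart, and for Pnma5 and Il17b also IP20D-3. In 45 of them at least 1 group had a mean above background. Of these 45, 22 passed at a limma adjusted p under 0.05 and did so in every alternative setting that fitted them. Comparisons with MEF gave 7 of 8 such calls for CL11, 4 of 5 for IP14D-101, 4 of 7 for IP14D-1 and 2 of 3 for IP20D-3. Over all probe sets, with no limit on level, 43.4%, 45.7%, 42% and 43.8% passed in these comparisons. Between lines, IP20D-3 against CL11 gave 2 of 3 (14.5% over all probe sets), the calls of Mid1 and Trim66, whose second outlying line was IP20D-3. IP14D-1 against CL11 gave 2 of 7 (17.2%), and IP14D-101 against IP14D-1 gave 1 of 4, the AI662270 call (23.4%). In IP14D-101 against CL11 0 of 5 passed (7.18% over all probe sets) and in IP20D-3 against IP14D-1 0 of 3 (5.48%), and these held 1 and 0 with an unadjusted p under 0.05 by limma. The choice of the genes favoured some of these calls, those of Ankrd31, Pnma5 and Il17b against MEF among them. Since the members' comparisons were also limited by level and those of all probe sets were not, nothing is read from the counts against these shares.

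Genes beside the members on the chromosome, which played no part in the choice, were read in the contrast of the line that stands apart against the other 3 lines. The 5 nearest measured genes on either side by the RefSeq gene table gave 88 neighbours, 8 for Mid1, which lies near the end of the X chromosome, and 10 for each other gene. In all 14 of 88 passed, 6 higher and 8 lower, a share of 15.9%. Over all genes, by 1 probe set each, the share was 15.4% for IP20D-3, 22.5% for IP14D-101 and 21.4% for IP14D-1.

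Around Cap1 on chromosome 4 and Tmem87a on chromosome 2, 0 of 10 neighbours each passed in IP20D-3 by limma, and 3 and 1 had an unadjusted p under 0.05. Ppt1, the gene next to Cap1, differed by −0.12 ± 0.10 log2 (SE; adjusted p = 0.552), and Ganc and Vps39 beside Tmem87a by −0.19 and −0.07 (adjusted p = 0.651 and 0.798). Beside AI662270 on chromosome 11 only Taf15, for an RNA-binding protein, passed, higher by 1.58 ± 0.19 log2 (adjusted p = 2.0e-05), and it was the 5th of the genes on its side. Taf15, 246.5 kb from AI662270, was not high in IP20D-3 alone. It had log2 levels of 13.94 in IP20D-3 and 13.77 in IP14D-1, against 11.28 in IP14D-101 and 12.02 in CL11. Its level also followed Mid1 across groups, as given with the like patterns.

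Of the 10 neighbours of Usp26, 3 were higher in IP20D-3. Firre, an X-linked noncoding RNA, rose by 1.11 ± 0.12 log2 (adjusted p = 7.2e-06), Stk26 by 0.64 ± 0.11 and Hs6st2 by 0.61 ± 0.09, and 0 fell. The calls of Stk26 and Hs6st2 ended without scaling of the arrays. Firre lay 1117.3 kb, Stk26 859.6 kb and Hs6st2 71.0 kb from Usp26. Around Ankrd31, Ankdd1b fell by 0.98 log2 and Gfm2 rose by 0.57 in IP14D-101 (limma adjusted p = 0.00381 and 4.8e-05). Beside Mid1, Erdr1, read by a probe set that can also match other transcripts, fell by 0.77 and Msl3 by 0.49 log2 (adjusted p = 2.2e-04 and 0.0367). Erdr1 lay 19.7 kb and Msl3 1010.8 kb from Mid1, and the Msl3 call ended under 10 of 25 alternatives. Akip1 near Trim66 fell by 0.42, Nsdhl near Pnma5 by 0.43 and Bvht near Il17b by 0.52 log2, and each of these calls ended under 1 other scaling, where the direction of Nsdhl turned.

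**Figure D3:**
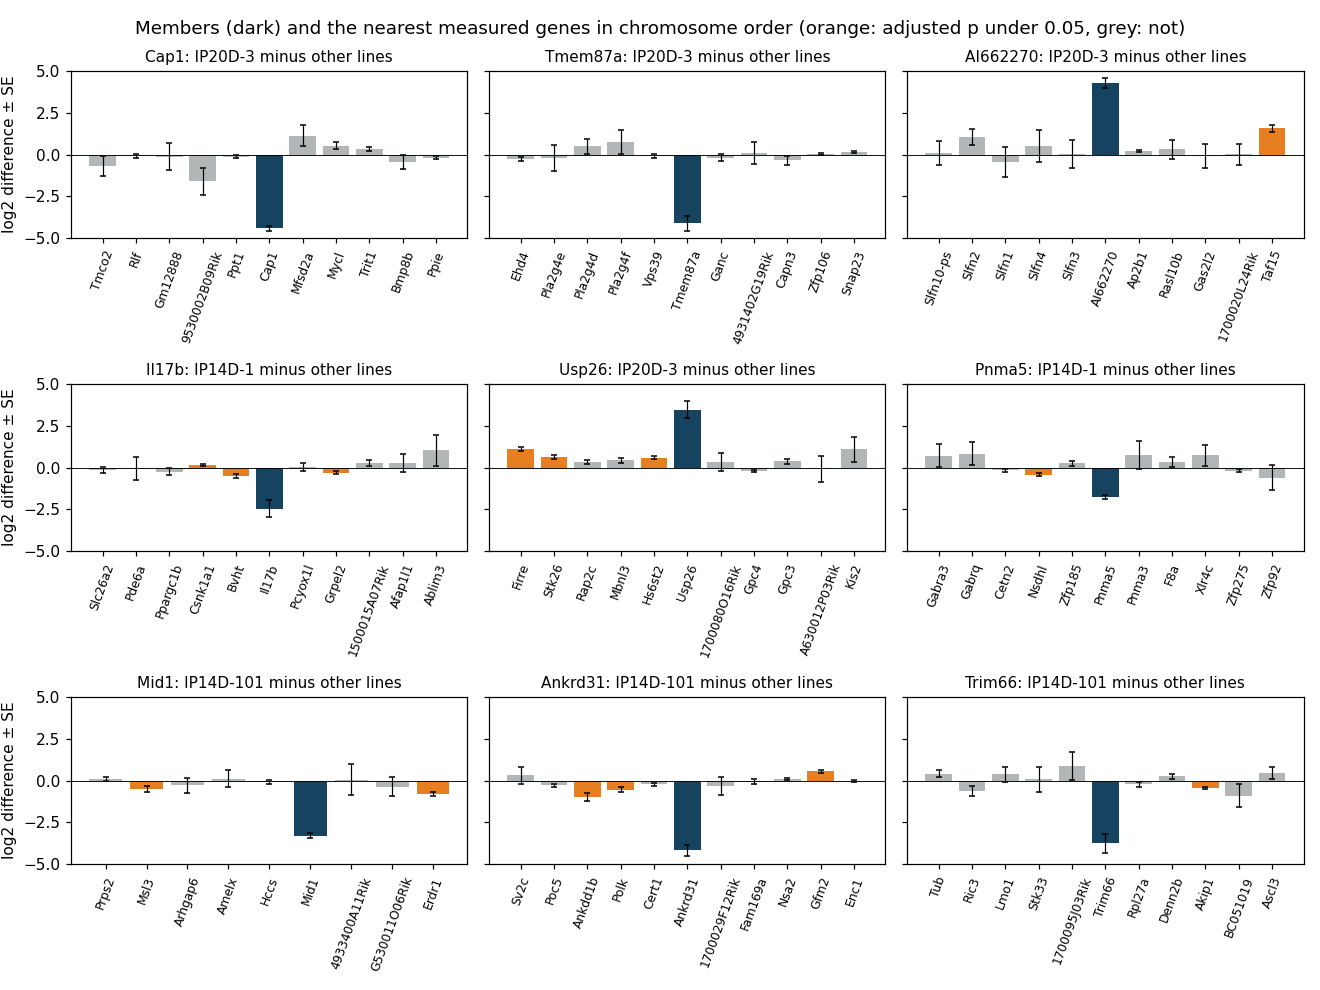
Bars give the log2 difference of the line named above each panel from the other 3 lines, with SE, for the member (dark) and its measured neighbours in chromosome order. Orange bars passed at an adjusted p under 0.05. No orange bar stands beside Cap1 or Tmem87a (0 of 10 neighbours each), and 3 stand beside Usp26.

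The genes with the most similar levels over the 15 arrays were found by Pearson correlation among 8435 genes whose group means spanned at least 1 log2 and reached above background. All arrays of a group share a line and culture, so r mainly reflects 5 group means. Cap1 was followed by Mirg (0.967), Rbm45 (0.961) and Meg3 (0.960), and Tmem87a by Rian (0.953), Thg1l (0.944) and Flrt3 (0.908). Mirg, Meg3 and Rian are maternally expressed noncoding RNAs of the imprinted Dlk1-Dio3 region. Meg3 had log2 levels of 13.37 in IP20D-3, 16.28 in IP14D-101, 17.29 in IP14D-1 and 16.39 in CL11, against 18.31 in MEF. AI662270 and Usp26 were each other's nearest gene (r = 0.902), but both are members high in IP20D-3, so their choice favoured this match. After it came Klk8 (0.893) and Shb (0.889) for AI662270 and Phf19 and Mdm4 (both 0.884) for Usp26.

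Mid1 was followed by Taf15 (0.970), Atf3 (0.963) and Chac1 (0.956), and Trim66 by Zfp939 (0.954), Tmem200a (0.953) and Ddit3 (0.948). Ddit3, a transcription factor gene induced by stress of the endoplasmic reticulum, had log2 levels of 12.58 in IP14D-101, 15.98 in IP20D-3, 15.99 in IP14D-1 and 12.88 in CL11, against 16.45 in MEF. Chac1, which encodes an enzyme that breaks down glutathione, had 14.04, 16.76, 17.36 and 14.07 in these lines, against 15.97 in MEF. Ankrd31 was followed by Gadd45a (0.980), Atrx (0.949) and Hnrnpa1 (0.948), Pnma5 by Dtx1 (0.976), Skp1 (0.968) and Rcbtb1 (0.963), and Il17b by Pop1 (0.871), Col9a2 (0.862) and Lrp5 (0.857). Ranks in place of values kept only 2 of the 27 genes, both beside Pnma5.

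**Figure D4:**
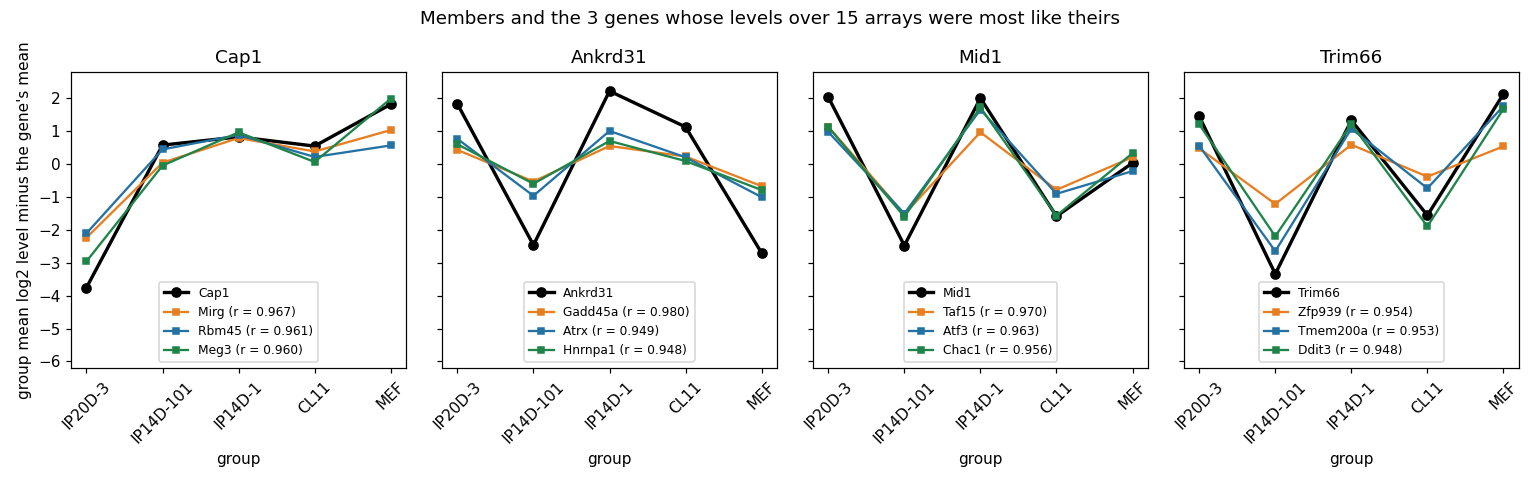
Lines join the mean log2 level of the 5 groups, each gene's own mean being subtracted, for 4 members (black) and the 3 genes most like each. Cap1 and Meg3 are both lowest in IP20D-3, and Mid1 with Atf3 and Trim66 with Ddit3 are lower in IP14D-101 and CL11 than in IP20D-3 and IP14D-1.

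Partners and relatives of each member were read from lists in the same contrast. The share of all genes that passed, beside which each list count stands, was 15.4% in IP20D-3, 22.5% in IP14D-101, 21.4% in IP14D-1 and 16.7% in CL11. Of 24 measured genes of actin turnover, 1 rose and 6 fell in IP20D-3, with a median of −0.10 log2 against 0.01 over all genes, of which 15.4% passed. The same list gave 6 in IP14D-101, 6 in IP14D-1 and 8 in CL11, counted in either direction. Gsn, for the filament-severing protein gelsolin, fell by 1.54 ± 0.15 log2 (adjusted p = 2.6e-06), Pfn1, for the actin monomer-binding profilin, by 1.21 ± 0.07 (adjusted p = 2.6e-09), Tmsb4x, for an actin-sequestering peptide, by 0.48 (adjusted p = 3.6e-04), and Ssh2, for a cofilin phosphatase, by 0.42 (adjusted p = 0.0339). The Ssh2 call ended under 7 settings, among them leaving out any IP20D-3 array, and the other 3 held in every setting. Gsn was read by a probe set that can also match other transcripts. Gsn had log2 levels of 13.03 in IP20D-3, 13.55 in IP14D-101, 14.94 in IP14D-1 and 15.24 in CL11, against 18.93 in MEF, and Pfn1 and Tmsb4x were also highest in MEF. The fibroblast markers given above had their lowest sum among the lines in IP20D-3 too, and their part in these differences was not tested. Cap2, the paralog of Cap1, was below background in all 4 lines and differed by 0.34 ± 0.37 log2 (adjusted p = 0.655). Tmem87b, the closest relative of Tmem87a, was the 1 of 6 genes on its list that passed, higher by 0.44 ± 0.14 log2 (adjusted p = 0.0471), a call lost under 16 of 25 alternatives, among them each other scaling and leaving out any IP20D-3 array.

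Among 14 measured X-linked germ cell genes and ubiquitin peptidases, 3 rose and 0 fell in IP20D-3, where 15.4% of all genes passed. Their median, beside Usp26, was 0.33 log2. Those that rose were the homeobox genes Rhox6 (1.73 ± 0.43 log2, adjusted p = 0.0119), Rhox9 (1.63 ± 0.16, adjusted p = 3.0e-06) and Rhox5 (0.81 ± 0.11, adjusted p = 1.2e-04). Rhox6 lost its call without any 1 of the IP20D-3 arrays. In the other lines 5 of the 14 passed in IP14D-101, 2 in IP14D-1 and 0 in CL11, where 1 had an unadjusted p under 0.05. Over all genes 22.5% passed in IP14D-101 and 21.4% in IP14D-1. A wider list held 18 measured germ line genes, put together as genes under promoter methylation, which was not measured in these cells. It gave 1 higher and 2 lower in IP20D-3, 1 and 3 in IP14D-101, and 0 and 0 in IP14D-1 (1 at an unadjusted p under 0.05). In CL11, where 16.7% of all genes passed, it gave 1 and 1. Its median was 0.09 log2 in IP20D-3, −0.58 in IP14D-101, 0.21 in IP14D-1 and 0.11 in CL11. Sycp3, for a protein of the meiotic chromosome axis, rose by 1.68 in IP20D-3 and fell by 1.12 in CL11, and Zfp42, also a marker of pluripotent cells, rose by 1.87 log2 in IP14D-101.

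Meiotic genes beside Ankrd31 moved both ways in IP14D-101, 4 of 26 higher and 6 lower, with a median of 0.02 log2, where 22.5% of all genes passed. The same list gave 4 in IP20D-3, 4 in IP14D-1 and 3 in CL11 in either direction. Stra8, needed for entry into meiosis, rose by 2.55 ± 0.20 log2 (limma adjusted p = 1.4e-07) and Rec8, for a meiotic cohesin, by 1.09 ± 0.24 (adjusted p = 0.00369). Spo11, the enzyme that cuts DNA in meiosis, fell by 2.40 and Sycp2 by 1.74, but both lay below background in IP14D-101 and on average in the other lines. The Spo11 call also ended without IP14D-101 replicate 2.

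Of 12 measured MID1 partners and relatives, Ppp2ca, for the PP2A subunit that MID1 acts on, rose by 0.16 and Mid1ip1 fell by 0.29 log2 in IP14D-101. Both calls depended on scaling, and the direction of Ppp2ca turned under 1 setting. The same list gave 1 in IP20D-3, 2 in IP14D-1 and 4 in CL11 in either direction, and 22.5% of all genes passed in IP14D-101. Of 13 TIF1 partners, 2 rose and 3 fell, with Atrx, a chromatin remodeler, lower by −1.62 ± 0.16 log2 (adjusted p = 1.9e-06), Zfp809 by −0.64, Zfp57 higher by 0.38 and Cbx1 lower by −0.36. Of these, only the Atrx call held in every setting. The TIF1 list gave 6 in IP20D-3, 5 in IP14D-1 and 4 in CL11, so calls on it were not particular to IP14D-101. In IP14D-1, 2 of 10 interleukin 17 genes rose, Il17rd by 0.85 ± 0.09 (adjusted p = 2.6e-06) and Il17d by 0.74 log2 (adjusted p = 0.0438), and 1 of 14 Ma and Gag-derived genes, Arc, fell by 0.92. Il17d, read by a probe set that can also match other transcripts, lost its call under 12 settings, and Arc without scaling and without IP14D-1 replicate 1 or 2. Over all genes 21.4% passed in IP14D-1. The interleukin 17 list gave 1 in IP20D-3, 0 in IP14D-101 and 2 in CL11, and the Ma list 1, 0 and 0. Where these counts were 0, 2, 4 and 4 genes had an unadjusted p under 0.05 by limma.

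Because Usp26, Pnma5 and Mid1 are X-linked, genes of the sex chromosomes were read beside them. Of 9 measured, 1 rose in IP20D-3 and 0 fell, 1 rose and 2 fell in IP14D-101, 2 rose and 1 fell in IP14D-1 and 0 passed in CL11 by limma, where 4 had an unadjusted p under 0.05. Over all genes 15.4%, 22.5%, 21.4% and 16.7% passed in these lines, and nothing is read from so few genes. Xist, the RNA that coats the inactive X chromosome, had log2 levels of 13.58 in IP20D-3, 13.22 in IP14D-101, 13.67 in IP14D-1 and 13.05 in CL11, against 16.92 in MEF. The Xist probe set can also match other transcripts. Kdm5d lay below background in all groups, and Ddx3y had no probe set of its own here.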

How the data were processed

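The values are intensity signals that the authors deposited for 15 arrays, with MAS5 and Expression Console (Affymetrix) as the tools per the submitters' processing notes. Versions were not given in the sources used here. Of 45101 probe sets, 64 were array controls. Trimmed means (2% off each end) ran from 11141.8 to 20355.5, so all arrays were brought to the average of these and log2(signal + 16) was taken. Probe sets were named from the platform annotation: 34945 named 1 gene, 932 several and 9160 none. A mean for each of 5 groups was fitted to 45037 probe sets with limma 3.58.1 in R 4.3.3, with variances moderated by a trend on level and p values adjusted by Benjamini and Hochberg over all of them. Errors of differences are standard errors. A called difference had an adjusted p under 0.05. The fit was tested on simulated data. The number of arrays limits the precision.

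The members and lists were chosen with earlier results of these data known. Named were the members, up to 2 called neighbours per member, up to 4 called genes per list, the 3 genes most like each member, and Pou5f1, Nanog, Col1a1, Postn, Gata6, Sox17, Xist, Eif2s3y, Uty, Ddx3y and Kdm5d. Ppt1, Ganc, Vps39, Hs6st2 and Cap2 fall outside this rule and were chosen after their values were seen. Samples with the same replicate number did not deviate together (correlations of −0.024 to 0.019 over 30 pairs), so no block was used.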

Additional observations from a re-analysis of the deposited data

How the results depend on the processing

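The 22 calls among the members' other groups with a group above background held with their direction in every alternative that fitted them. Of the 14 neighbour calls 5 did, and of 45 calls on the lists 15 did. With the replicate number as a replicate block, which the data do not bear out as a pairing, 31 of 78 member comparisons (IP20D-3 in Pnma5 and Il17b counted here), 15 neighbours and 27 genes of the members' lists passed, against 31, 14 and 31 without it, and 4955 to 8481 probe sets passed per line, in place of 5153 to 8700. With 5 of 15 samples correlating best with their own number, nothing further was read from it. Without a variance trend 20 list genes passed, and 3113 probe sets in IP20D-3. Without scaling, 3397 probe sets passed in CL11 and 15702 in IP14D-1. A fit over 1 probe set per gene, with fewer features tested, gave 3169 in IP20D-3, 4310 in IP14D-101, 4204 in IP14D-1 and 3450 in CL11, against 5153, 8700, 7837 and 5313. With 10 neighbours on either side 28 of 173 passed, more genes being read. Spearman's rho kept 2 of the 27 genes of like pattern. Leaving out 1 array gave 3542 to 6894 probe sets in CL11, 4487 to 8437 in IP14D-1, 5826 to 8719 in IP14D-101 and 2794 to 5931 in IP20D-3. The low values came without IP14D-1 replicate 2 (4487) or 1 (5061) and without IP20D-3 replicate 1 (2794). It also gave 30 to 32 member comparisons, 11 to 15 neighbours, 21 to 33 list genes and 8 to 9 members with the same outlying line. Raising levels below background to it, chosen after seeing the data, left 8 of 9 with that line, Trim66 being the exception. A pseudocount of 1000 moved all 9 differences of the outlying line, and the floor moved 6.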
